A study of Mus musculus with 6 samples.

Results

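Matrix metalloproteinases (MMPs), ADAM and ADAMTS proteases and their inhibitors were examined in MPC5 cells, a conditionally immortalized line of mouse podocytes, with and without overexpression of the long non-coding RNA Dlx6-os1. They were taken by symbol: every gene of the table named Mmp, Timp, Adam or Adamts (ADAMTS-like genes included) followed by its number, and Reck. This gave 27 of 11308 genes, with 41 of 21849 transcripts. The set was chosen with earlier results of these data known. RNA-seq covered 3 samples of cells overexpressing Dlx6-os1 and 3 control samples, all labelled as C57BL/6 kidney foot process cells and cultured in normal glucose. The labels name a lentivirus that carried Dlx6-os1 or no insert, whereas the methods name an adenovirus and normal controls, and the titles of the controls read WT. Control replicate 3 has no genotype label. All samples come from 1 cell line, and the labels do not say whether they were separate cultures. The methods speak in general of distinct samples or independent experiments, without naming RNA-seq, so p-values measure the spread between these samples, which may be technical.

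Levels are given as FPKM, in which fragments are corrected for transcript length and for the mapped fragments of a sample, and those of a gene's transcripts were added up. All listed transcripts together came to 329402 to 371806 FPKM per sample. This is not a depth, and the depth is unknown. Dlx6-os1 itself was not analysed here, and its level was therefore no check of the labels. Across genes, Pearson's r of log2(FPKM + 1) was 0.95 to 0.979 between controls, 0.965 to 0.98 between overexpressing samples and 0.932 to 0.975 between the groups. Of 10 podocyte markers, 6 were in the table, among them Synpo and Podxl, whereas Nphs1, which encodes the slit diaphragm protein nephrin, was not. The 6 summed to 373 to 462 FPKM in controls and 340 to 397 in overexpressing samples. Of them Kirrel, which encodes a partner of nephrin, was lower, with 134, 131 and 119 FPKM in controls against 30.03, 31.1 and 70.9 (log2 change -1.63, limma adjusted p = 0.307), and the other 5 did not pass. Markers of macrophages (3 of 6 in the table, Ptprc, Adgre1 and Itgam not among them) summed to 25.3 to 33.2 FPKM in controls and 20.1 to 21.7 in overexpressing samples. Of these Cd14 was lower (log2 change -0.74), while Csf1r (-0.44) and Cd68 (0.21) did not pass. Markers of tubules (Cdh16 and Lrp2 of 7) summed to 245 to 367 FPKM in controls and 84.6 to 195 in overexpressing samples. Both Cdh16 (log2 change -1.14) and Lrp2 (-0.74) were lower. Mesangial or fibroblast markers (4 of 6) summed to 18.5 to 100.3 against 12.3 to 18.9 FPKM, and none of them passed. The high end was control replicate 3, in which Acta2 had 86.7 FPKM, and without it the controls summed to 18.5 and 18.7 FPKM. None of 5 neutrophil and none of 5 endothelial markers was in the table. The part of these differences in the results below was not tested. In bulk RNA, fewer cells of a type cannot be told apart from less RNA per cell.

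MMPs are zinc enzymes that cut collagens and other proteins of the extracellular matrix, including the glomerular basement membrane to which podocytes attach. ADAMs sit in the cell membrane and release the outer part of other membrane proteins, a process called shedding, while ADAMTS enzymes are secreted and cut proteoglycans and procollagens. TIMPs bind the active site of these enzymes and block it, and Reck is a membrane-anchored inhibitor of several MMPs.

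All these proteases share a stretch in which 3 histidines hold the catalytic zinc. The pattern of codons searched was histidine, glutamate, any pair, histidine, any 5 codons and histidine. It was widened once, after a form with a fixed glycine had missed Adamts1, Adamts4 and Adamts9. It occurred once in the coding sequence (GENCODE M21 on GRCm38, the assembly of mm10) of the most abundant transcript of 21 of the 27 genes. The 6 genes without it were Timp1, Timp2, Timp3, Reck, Adamtsl4 and Adamtsl5, which are inhibitors or ADAMTS-like genes. Because the pattern was widened after it had missed genes named as proteases, this match with the names is not a result. The stretch is shown for the proteases to which the results return, from 5′ to 3′ on the coding strand, with the 3 histidine codons in capitals.
Mmp2: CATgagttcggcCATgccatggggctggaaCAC
Mmp9: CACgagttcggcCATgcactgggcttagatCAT
Mmp11: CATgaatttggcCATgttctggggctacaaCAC
Mmp15: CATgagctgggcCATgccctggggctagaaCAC
Adamts2: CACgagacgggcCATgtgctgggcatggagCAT
Adamts1: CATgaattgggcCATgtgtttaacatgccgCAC
Adam10: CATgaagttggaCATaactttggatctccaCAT
Adam17: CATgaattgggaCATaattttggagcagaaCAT
The stretches of the gelatinases Mmp2 and Mmp9 were identical in 25 of 33 bases. Both lie in exon 8 of 13, at chr8:92839279-92839311 for Mmp2 and chr2:164951133-164951165 for Mmp9, on the plus strand of mm10. In Mmp11 the stretch lies in exon 5 of 8 on the minus strand (chr10:75926931-75926963), and in Adamts2 it spans the junction of exons 7 and 8.

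Of the 27 genes, 2 were higher (Mmp9 and Adamts2) and 3 were lower (Mmp2, Mmp11 and Reck) in cells overexpressing Dlx6-os1, at the thresholds of the study, which were an unadjusted p under 0.05 (here from limma) and a fold above 1.5. Among all 11308 genes, 2.49% were higher and 2.23% were lower at these thresholds, 4.72% in all. Timp1 and Timp2 had p under 0.05 with folds below 1.5, and the other 20 genes did not have p under 0.05. At an adjusted p under 0.05 (limma, Benjamini-Hochberg over all genes) none of the 27 passed, against 0.0354% of all genes, while 7 had an unadjusted p under 0.05, against 9.16%. None passed it either with ordinary variances in place of limma's moderated ones. The smallest adjusted p among the 27 was 0.399, for Mmp9. The log2 change was below 0 in 18 of the 27 genes (66.7%) and in 45.8% of all genes, with a median of -0.22 against 0.03.

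The table lists a transcript only if its mean reaches 0.5 FPKM in 1 or both groups. Mmp9, Adamts2 and Adam8 had control means below that and are listed because they were higher in the overexpressing samples. These genes had to differ, so the count of higher genes says nothing about the family. In the opposite direction, Mmp23, Adamts6 and Adamts7 had overexpression means below 0.5. Among the 24 genes with a control mean of at least 0.5, none was higher and 3 were lower, against 2.18% higher and 2.27% lower of the 11113 genes above the same limit. This limit on the control level leaves out genes that rose from below it, so the absence of higher genes is not a result either.

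**Figure D1:**
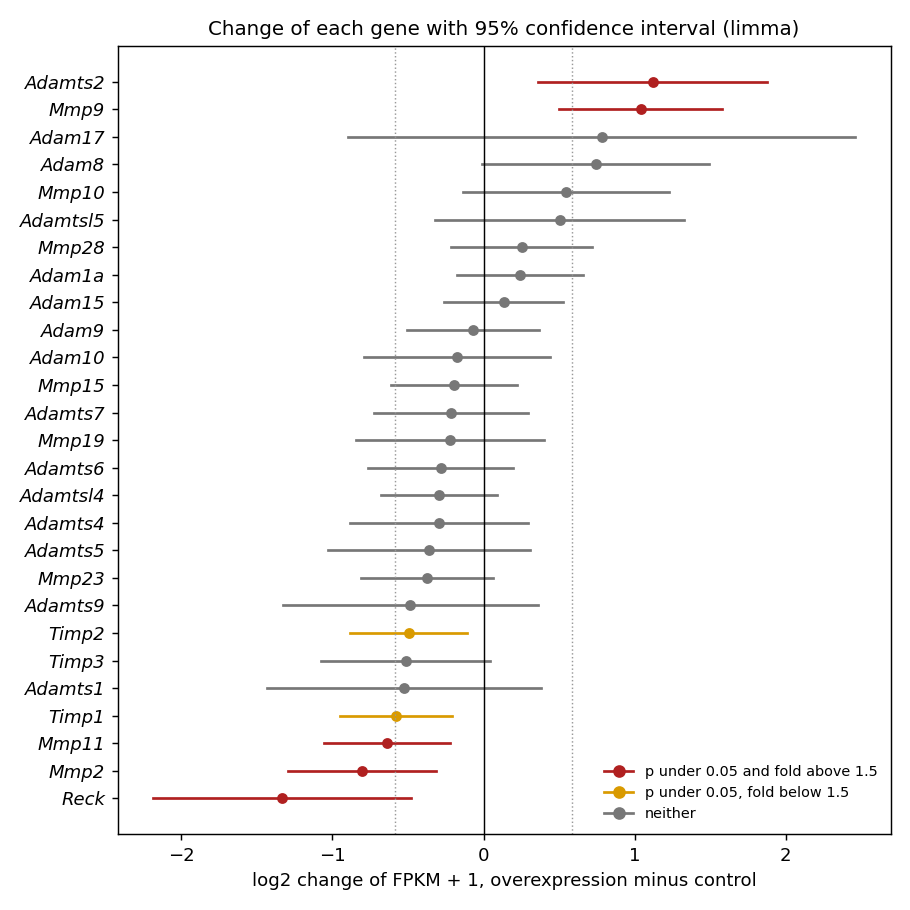
Log2 change of FPKM + 1 (overexpression minus control, x axis) of the 27 genes (y axis), with 95% confidence intervals from limma; dotted lines mark a fold of 1.5. Adamts2 and Mmp9 lie furthest to the right among genes past both thresholds, Reck, Mmp2 and Mmp11 furthest to the left, and Timp1 sits just inside the dotted line at -0.58.

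**Figure D2:**
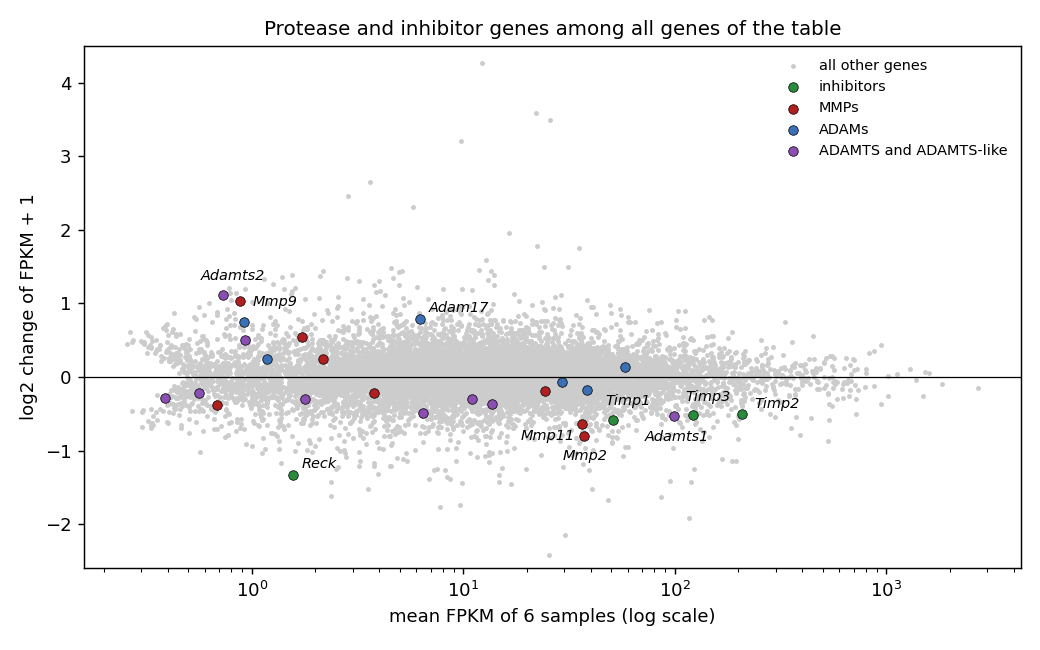
Log2 change of FPKM + 1 (y axis) against the mean FPKM of 6 samples (x axis, log scale) for all 11308 genes in grey and the 27 genes by family. Of the 12 genes whose mean reaches 10 FPKM, 11 lie below 0, against 43.7% of all 6342 genes at that level.

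The gelatinases, which cut denatured collagen and the type IV collagen of basement membranes, moved in opposite directions. Mmp2 (ENSMUSG00000031740.8, chr8:92827291-92853420), gelatinase A, had 40.1, 46.3 and 55.8 FPKM in the controls and 32.9, 28.7 and 19.6 in the overexpressing samples. Every overexpressing sample was below every control, which was the case for 6.24% of all genes. The means were 47.4 ± 7.9 against 27.1 ± 6.76 FPKM (SD, n = 3). On the log2(FPKM + 1) scale, Mmp2 changed by -0.80 ± 0.21 (standard error; 95% confidence interval -1.29 to -0.31, limma adjusted p = 0.425). Leaving out 1 sample at a time, the log2 change of Mmp2 ran from -0.95 to -0.60 and the call held each time. Almost all of this signal was the full-length transcript Mmp2-001 (96.8% to 98.7% of the gene's FPKM), which passed on its own with a log2 change of -0.81.

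Mmp9 (ENSMUSG00000017737.2, chr2:164948219-164955850), gelatinase B, which is inducible in many cell types by inflammatory signals, had 0.129, 0.204 and 0.284 FPKM in the controls and 1, 1.17 and 2.5 in the overexpressing samples. All overexpressing samples were above all controls, which was the case for 10.1% of all genes. The means were 0.206 ± 0.0774 against 1.56 ± 0.822 FPKM (SD, n = 3), and the log2 change was 1.04 ± 0.24 (standard error; 95% confidence interval 0.50 to 1.58, limma adjusted p = 0.399). The change in log2(FPKM + 1) understates that of such a low gene, since the ratio of the group means was 7.56, and with a pseudocount of 0.1 in place of 1 the change of Mmp9 was 2.36. The log2 change was 0.79 without overexpression replicate 3 and at most 1.19 without any other single sample, and the call held each time. Even after the increase, Mmp9 was the scarcer gelatinase in each sample. For each FPKM of Mmp9 there were 310.1, 227 and 196 of Mmp2 in the controls and 32.8, 24.6 and 7.86 in the overexpressing samples, and these ranges did not overlap. The log2 of Mmp9 + 1 over Mmp2 + 1 differed by 1.84 between the groups (exact two-sided permutation test, p = 0.1). As 0.1 is the smallest p that 3 samples against 3 allow, the test could not decide. Mmp9 is also listed only through its level in the overexpressing samples, so no conclusion is drawn from this ratio. Mmp9 made up 0.121% to 0.194% of the summed FPKM of the 8 listed MMPs in controls and 1.03% to 3.26% in overexpressing samples.

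**Figure D3:**
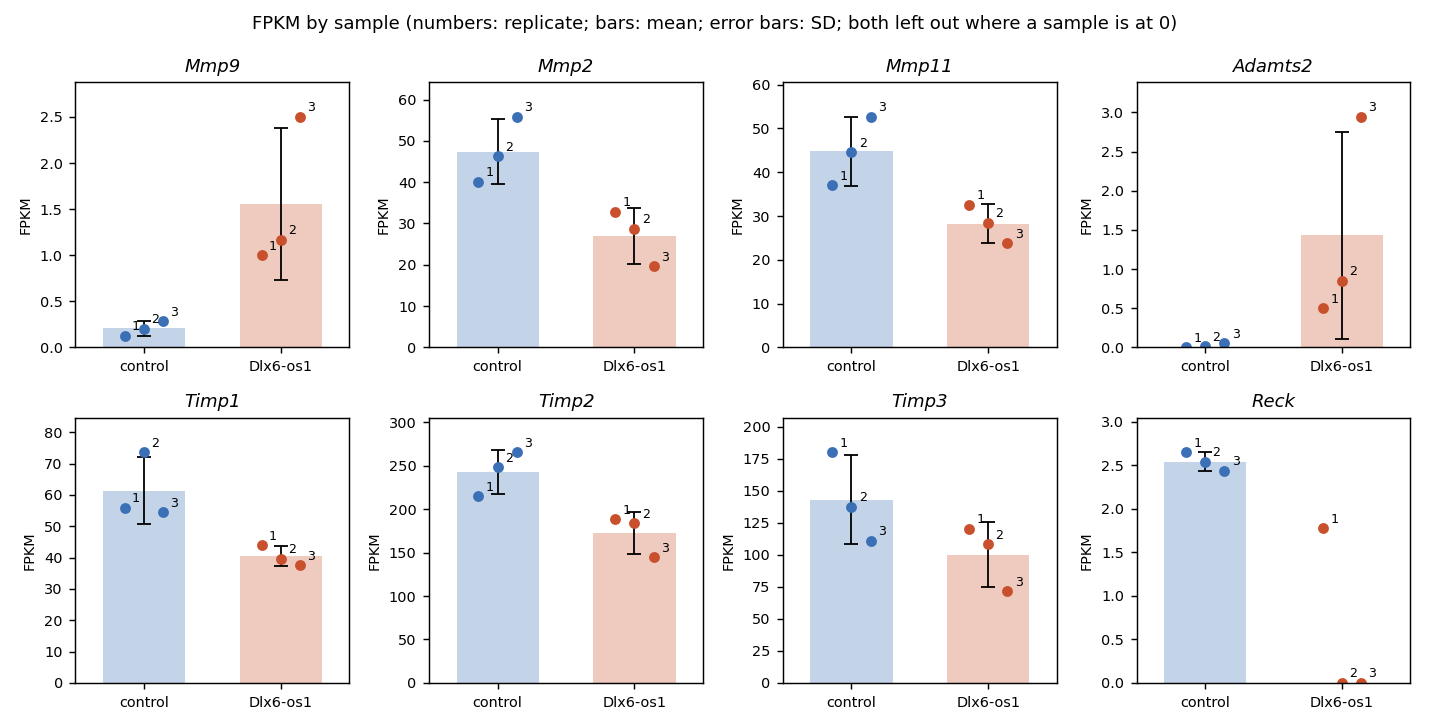
FPKM (y axes, from 0) of 8 genes in 3 control and 3 Dlx6-os1 overexpressing samples, numbered by replicate; bars are means and error bars SD, both left out where a sample is listed at 0. Mmp9 and Adamts2 are higher, and Mmp2, Mmp11, Timp1, Timp2 and Reck lower, in every overexpressing sample than in any control, while the groups of Timp3 overlap.

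Mmp11, stromelysin-3, unusual among secreted MMPs in being activated inside the cell by furin, was at nearly the same level as Mmp2. It had 37.0, 44.5 and 52.6 FPKM in the controls and 32.5, 28.5 and 23.8 in the overexpressing samples. The groups did not overlap. The log2 change was -0.64 ± 0.18 (standard error, limma adjusted p = 0.452), with means of 44.7 ± 7.79 against 28.3 ± 4.39 FPKM (SD, n = 3). The fold was below 1.5, and the call of Mmp11 was lost, when replicate 3 of the controls (-0.52) or of the overexpressing samples (-0.53) was left out. The decrease was in the main transcript, Mmp11-001 (log2 change -0.72, limma adjusted p = 0.581), whereas Mmp11-002 had 3.3, 3.36 and 4.63 FPKM in controls against 4, 6.62 and 1.7. Mmp11-001 held 89.6% to 89.8% of the gene in controls and 86.6%, 76.8% and 90.9% in overexpression replicates 1, 2 and 3. Mmp2 and Mmp11 together with Mmp15 made up most of the MMP signal. Mmp15, a membrane-type MMP, was at 26.3 ± 5.87 against 22.5 ± 1.65 FPKM (SD, n = 3), with overlapping groups and a log2 change of -0.19 (95% confidence interval -0.61 to 0.22). The summed FPKM of the 8 MMPs was 107, 127 and 147 in controls and 96.8, 90.2 and 76.6 in overexpressing samples.

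Of the remaining MMPs, none passed. Mmp10 (stromelysin-2) had 1.03, 1.77 and 0.732 FPKM in controls against 1.66, 1.4 and 3.76, a log2 change of 0.55. Its highest value came from overexpression replicate 3 and the groups overlapped. Mmp19 had a log2 change of -0.22 and Mmp28 (epilysin) of 0.25, both with overlapping groups. Mmp23 was at 1.12, 1.1 and 0.529 FPKM in controls against 0.522, 0.386 and 0.471, so that the groups did not overlap, but control replicate 3 lay next to the overexpressing samples (log2 change -0.38, limma adjusted p = 0.598). None of the 4 collagenase genes (Mmp1a, Mmp1b, Mmp8, Mmp13) was in the table, and of the 6 membrane-type MMPs only Mmp15 was.

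The inhibitors Timp2 and Timp3 had the highest levels of the 27 genes, and each of the 4 listed inhibitors had a log2 change below 0. Timp2, which inhibits MMP2 and also takes part in its activation at the cell surface, ranked 193 among all genes by its control mean. Its levels were 215, 248 and 266 FPKM in the controls and 189, 184 and 145 in the overexpressing samples. These values did not overlap. The means were 243 ± 25.7 against 172 ± 23.9 FPKM (SD, n = 3). Its log2 change was -0.50 ± 0.17 (standard error, limma adjusted p = 0.481), short of a fold of 1.5. The unadjusted p of Timp2 was no longer under 0.05 when control replicate 2, control replicate 3 or overexpression replicate 3 was left out.

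Timp1, an inhibitor that many cells induce in response to cytokines, had 55.9, 73.6 and 54.4 FPKM in the controls and 43.9, 39.6 and 37.6 in the overexpressing samples, again without overlap. The log2 change was -0.58 ± 0.16 (standard error; 95% confidence interval -0.95 to -0.21, limma adjusted p = 0.443), just short of a fold of 1.5 on FPKM + 1, while the control mean was 1.52 times the overexpression mean. The call of Timp1 therefore turned on how the fold was taken. Both its transcripts were lower in overexpressing samples, with log2 changes of -0.68 for Timp1-001, which passed, and -0.49 for Timp1-002. Timp3, which is held in the matrix and also inhibits ADAM17, had 179.9, 138 and 111 FPKM in controls against 120, 108 and 71.6. The groups overlapped, with a log2 change of -0.52 (95% confidence interval -1.07 to 0.04, limma adjusted p = 0.574). Timp1 and Timp3 would both be called without control replicate 3 (-0.66 and -0.68) or without overexpression replicate 1 (-0.64 and -0.67). The sum of the 3 TIMPs was 431 to 459 FPKM in controls and 254 to 353 in overexpressing samples. Set against the sum of the 8 MMPs, the TIMPs amounted to 4.23, 3.61 and 2.94 in controls and 3.64, 3.67 and 3.32 in overexpressing samples, so this ratio overlapped between the groups. Timp1 lies inside Syn1 and Timp3 inside Syn3, each on the opposite strand. The sources used here do not say whether quantification used the strand, so reads of these overlapping genes may have been mixed. Timp4 was not in the table.

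Promoters of Mmp11 and Reck, also lower with p under 0.05, were available but are not shown. Those of Timp1 and Timp2 are shown as the TIMP genes with p under 0.05, both in the same direction. They are the 250 bases before and 50 after the start of each gene, from RefSeq on GRCm38, at chrX:20869916-20870215 on the plus strand and chr11:118355362-118355661 on the minus strand, with GGGCGG on either strand in capitals. The start of Timp2 in RefSeq differs from that in the table, where its transcripts start at 118355506 (Timp2-001) and 118355740 (Timp2-002), so that this window lies inside the gene as the table places it.
Timp1: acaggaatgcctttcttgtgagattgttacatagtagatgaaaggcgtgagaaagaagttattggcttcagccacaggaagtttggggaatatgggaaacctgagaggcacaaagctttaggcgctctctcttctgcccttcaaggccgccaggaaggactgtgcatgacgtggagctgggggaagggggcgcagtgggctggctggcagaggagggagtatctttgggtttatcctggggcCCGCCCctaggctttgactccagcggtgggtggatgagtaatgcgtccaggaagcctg
Timp2: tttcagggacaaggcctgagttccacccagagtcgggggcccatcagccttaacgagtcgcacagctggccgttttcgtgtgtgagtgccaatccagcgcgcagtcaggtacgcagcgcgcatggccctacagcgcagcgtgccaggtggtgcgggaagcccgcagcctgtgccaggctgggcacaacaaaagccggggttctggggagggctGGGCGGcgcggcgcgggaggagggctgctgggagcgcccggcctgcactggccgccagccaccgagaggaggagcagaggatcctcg
Each holds 1 GGGCGG, the core of the GC box. The RefSeq promoters matched 19 of the 27 genes with 20 promoters, and 17 of these 20 held GGGCGG on either strand, against 35.7% of all 32851 promoters. The 32851 were not limited to genes of the table, for which no share was counted. No trait of the 27 genes is therefore read from this difference. The AP-1 motif TGANTCA, searched on both strands, was in 1 of the 20 (Mmp10) and in 7.8% of all promoters. GGGCGG and TGANTCA cannot overlap.

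Reck (ENSMUSG00000028476.13, chr4:43875530-43944806) had 2.65, 2.54 and 2.44 FPKM in the controls and 1.77 in overexpression replicate 1, and was listed at 0 in overexpression replicates 2 and 3. All overexpressing samples were below all controls, and Reck changed by -1.33 ± 0.37 on the log2 scale (standard error, limma adjusted p = 0.445). Because of the samples at 0 this change depends on the pseudocount, and with 0.1 in place of 1 that of Reck was -3.31. Among the transcripts of the glycolytic gene Gapdh, 1 is also listed at 0 in at least 1 sample. Whether the values of 0 for Reck are failed estimates was not tested. The annotation holds, beside the listed coding transcript of 4433 bases, a noncoding Reck transcript of 4549 bases that was not analysed here. Less Reck mRNA therefore cannot be told apart from fragments assigned to that transcript. The change was -1.09 without overexpression replicate 2 or without overexpression replicate 3. Without overexpression replicate 1 it was -1.82 (limma adjusted p = 0.0355), where both samples left are at 0. The call of Reck was lost with ordinary variances in place of moderated ones.

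**Figure D4:**
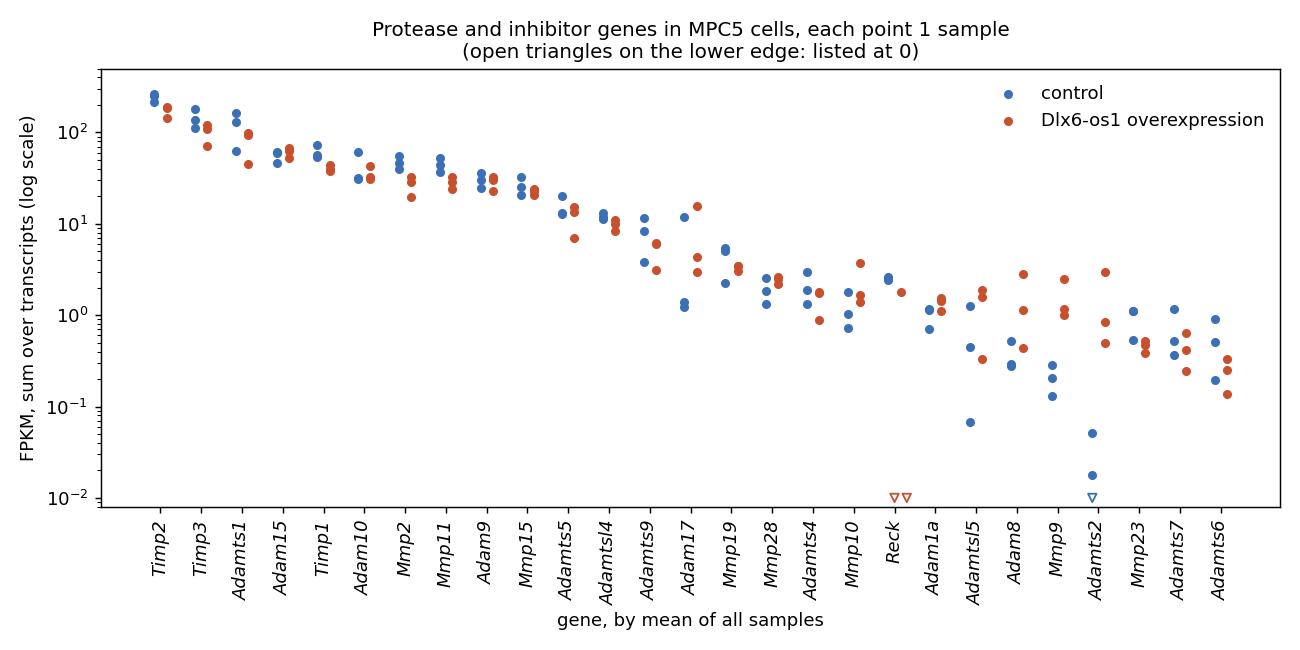
FPKM summed over transcripts (y axis, log scale) of the 27 genes in order of their mean, each point 1 sample (blue, control; red, Dlx6-os1 overexpression); open triangles mark samples listed at 0. Timp2 and Timp3 have the highest means, and the genes that are higher in overexpressing samples, Mmp9 and Adamts2, lie among the lowest.

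Among the sheddases, none of 6 ADAM genes passed and the groups of each overlapped. Of all 11308 genes, 10774 did not pass and 9464 had groups that overlapped, so this sets the ADAMs little apart. Adam10, the main alpha-secretase and a Notch sheddase, had 61.7, 31.3 and 32 FPKM in controls against 42.6, 32.3 and 30.8. Control replicate 1 stood above the other 5 samples. The log2 change of Adam10 was -0.18 ± 0.27 (standard error; 95% confidence interval -0.79 to 0.44, limma adjusted p = 0.886), and 0.14 without control replicate 1. Adam17, which releases TNF and EGF receptor ligands, varied most within the groups. It had 1.4, 1.24 and 11.8 FPKM in controls against 2.95, 15.6 and 4.34, so that control replicate 3 and overexpression replicate 2 stood far above the others. The log2 change was 0.78 with a standard error of 0.73 (95% confidence interval -0.90 to 2.46, limma adjusted p = 0.79), and it would be called at 1.61 without control replicate 3. Of 10 annotated transcripts of Adam17 only 1 is listed, and coding and noncoding transcripts of 4423 to 4469 bases that nearly match its 4443 were not analysed here.

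Adam15, a sheddase with disintegrin function, was at 55.6 ± 8.63 against 60.9 ± 8.1 FPKM (SD, n = 3), the highest of the ADAMs. Of its 4 listed transcripts, Adam15-001 had 4.97, 4.75 and 3.93 FPKM in controls against 6.3, 7.05 and 6.61, without overlap and with a fold below 1.5 (log2 change 0.47, limma adjusted p = 0.652). Adam9 shows why gene sums were used. Adam9-201 had 13.4 and 13.8 FPKM in control replicates 1 and 2 and 13.2 in overexpression replicate 3, and was listed at 0 in the other 3 samples. In those 3 samples Adam9-001 held 95.1% to 100% of the gene, against 41.2% to 61.4% in the rest. The summed gene ran only from 24.9 to 35.6 FPKM in controls and from 23 to 32.4 in overexpressing samples (log2 change -0.07). Adam1a had 1.16, 1.14 and 0.708 against 1.43, 1.53 and 1.12 FPKM.

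Adam8, a sheddase best known from leukocytes, had 0.289, 0.276 and 0.526 FPKM in controls against 0.438, 1.14 and 2.82. It did not pass (log2 change 0.74, limma adjusted p = 0.548), but did so without overexpression replicate 1 (1.07). It is one of the genes listed because of their level in the overexpressing samples, and 2.33 of its 2.82 FPKM in replicate 3 came from the transcript Adam8-002.

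**Figure D5:**
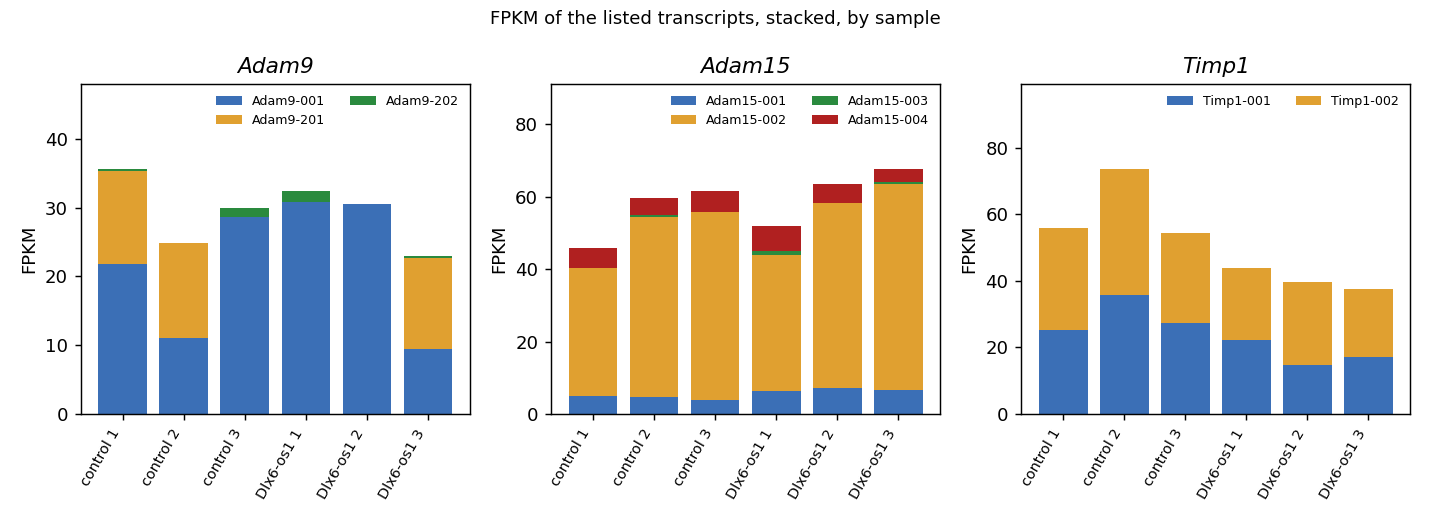
FPKM of the listed transcripts of Adam9, Adam15 and Timp1 (y axes), stacked for each of 6 samples (x axes). Adam9-201 is present in 3 samples and at 0 in the other 3 while the height of the Adam9 bars stays between 23 and 35.6, and both Timp1 transcripts are lower in every overexpressing sample than in any control.

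Of 7 ADAMTS genes, 1 was higher and none was lower. Adamts2, which removes the N-terminal propeptide of fibrillar procollagens, was listed at 0 in control replicate 1 and had 0.0179 and 0.0508 FPKM in control replicates 2 and 3, against 0.499, 0.851 and 2.94 in the overexpressing samples. The groups did not overlap and the log2 change was 1.12 ± 0.33 (standard error, limma adjusted p = 0.455). The change of Adamts2 was 0.70 without overexpression replicate 3 and 3.31 with a pseudocount of 0.1, and its call was lost with ordinary variances. As for Mmp9, the gene is in the table because of its level in the overexpressing samples.

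The proteoglycanases Adamts1, Adamts4, Adamts5 and Adamts9, which cut aggrecan and versican, all had log2 changes below 0 and none passed. Adamts1 ranked 535 among all genes by its control mean, and had 161, 129 and 62.5 FPKM in controls against 94.8, 99.8 and 45.6. In both groups replicate 3 was lowest, and the log2 change was -0.53 ± 0.40 (standard error; 95% confidence interval -1.43 to 0.38). Adamts9 followed the same order by sample, with 11.5, 8.38 and 3.79 against 6.02, 6.1 and 3.1 FPKM (log2 change -0.49). Without control replicate 3 both would be called, at -0.92 for Adamts1 and -0.88 for Adamts9. Adamts5, the neighbour of Adamts1 on chromosome 16 at a distance of 55057 bases, had 20.1, 12.7 and 13 against 15.2, 13.5 and 7.08 FPKM. Adamts4 had 1.33, 1.89 and 2.99 against 1.81, 1.74 and 0.881 FPKM. Adamts6 and Adamts7, low in all samples, had log2 changes of -0.28 and -0.21. Of the ADAMTS-like proteins, which have no protease domain, Adamtsl4 was at 12.1 ± 0.955 against 9.75 ± 1.43 FPKM (SD, n = 3) with groups that did not overlap (log2 change -0.30, limma adjusted p = 0.633), and Adamtsl5 had 0.451, 1.26 and 0.067 against 0.332, 1.88 and 1.59 FPKM, overlapping between the groups. Without overexpression replicate 1, Adamtsl5 would be called (0.85).

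Overexpression replicate 3 lay furthest from the control mean in the direction of change in 21 of the 27 genes, replicate 2 in 6 and replicate 1 in none. Of the 7 genes with p under 0.05, this was replicate 3 in 6. The direction was that of a change which includes replicate 3, and the share over all genes was not counted. Across all genes, overexpression replicate 3 was also the least correlated with the controls. Its r with them was 0.932, 0.955 and 0.957, against 0.961 to 0.975 for overexpression replicates 1 and 2. Whether these counts are particular to the 27 genes was not tested. Without overexpression replicate 3, 2 genes were higher (Mmp9 and Adamts2) and 2 lower (Mmp2 and Reck).

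Genes that activate or regulate these proteases, and proteins that they cut, gave few calls. Of 36 listed activators and regulators, 23 were in the table, with none higher, 2 lower (8.7%) and a median log2 change of -0.27. Among all genes, 2.49% were higher and 2.23% lower. Plat, tissue plasminogen activator, was 1 of the 2 lower genes and had 131, 144 and 100.4 FPKM in controls against 106, 88 and 56.7 (log2 change -0.61, limma adjusted p = 0.526). The groups of Plat overlapped, and its call was lost when control replicate 1, control replicate 2 (-0.50), overexpression replicate 2 or overexpression replicate 3 was left out. Of 28 substrates of sheddases, 19 were in the table. Only Tnfrsf1b, the TNF receptor TNFR2, was higher, with 7.8, 12.2 and 9.77 FPKM in controls against 13, 17 and 24.1 (log2 change 0.78, limma adjusted p = 0.471), and none was lower. Its fold fell below 1.5 without overexpression replicate 3 (0.56). Of 15 substrates of ADAMTS enzymes, only Col2a1, Fmod and Col1a1 were in the table. Col2a1 was higher (0.227, 0.326 and 0.632 against 0.657, 0.999 and 2.79 FPKM) and is listed because of its level in the overexpressing samples. The Col2a1 call was lost without control replicate 1 or 2 or overexpression replicate 3 (0.39).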

How the data were processed

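The authors deposited FPKM of protein-coding transcripts. The submitters' processing notes name FastQC, HISAT2, StringTie and mm10 with no versions, and the sources used here give no annotation release. Polyadenylated RNA was sequenced from libraries that keep the strand. Every listed transcript reached a mean of 0.5 in one group or the other. Depth is unknown, since low values did not fall on steps worth 1 read. Columns were matched to samples by their descriptions. The FPKM of transcripts with the same gene symbol were added up. A filter at a mean of 0.5 in either group took out no gene. Differences in log2(FPKM + 1), with a pseudocount of 1, were tested with limma (version 3.58.1, R version 4.3.3; moderated, with a mean-variance trend). Tests were two-sided and p-values were adjusted by Benjamini-Hochberg over all 11308 genes. Unadjusted p and fold were then held against the thresholds of the study, and transcripts were fitted in the same way. The fit was tested on simulated data. Named in full were Mmp2, Mmp9, Adam10, Adam17, the Timp genes, Reck and the members past the thresholds, and from the other lists up to 4 genes past them. Some genes of the other lists are not reported here. Members and lists were chosen with earlier results of these data known. As alternatives, pseudocounts of 0.1 and 0.5, no filter and one at a mean of 1, TPM, quantile normalization, median-centring, a fit with no trend, ordinary variances, a block for replicate number, the ratio of group means as the fold, transcripts in place of genes, and the omission of each sample in turn were tried.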

Additional observations from a re-analysis of the deposited data

How the results depend on the processing

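Of the 27 genes, 3 were higher at pseudocounts of 0.1 and 0.5, as TPM, without a trend and with the replicate block (Adam8 was added), and 1 with the variance of each gene alone. The count of 3 lower genes was 4 at both pseudocounts, with median-centring, with folds of group means and with single transcripts (Timp1 was added in each; its log2 change was -0.59 at both pseudocounts and -0.62 after median-centring), and 2 with the variance of each gene alone. Leaving out 1 sample at a time gave 2 to 4 higher genes and 2 to 6 lower genes, with 4 and 5 without overexpression replicate 1 and 6 lower without control replicate 3, and 0 to 1 gene at the adjusted p. Of the 41 transcripts, 2 were higher and 4 lower, against 3.07% higher and 2.51% lower of all 21849 transcripts. Of the 41, 1 was higher with the variance of each transcript alone, and leaving out samples gave 1 to 3 higher and 2 to 5 lower. Mmp2 and Mmp9 kept their direction and their call under each alternative. As Mmp9 is listed only through its level in the overexpressing samples, its direction was fixed by the listing and is no support. Among the 27 genes the direction reversed only when a sample was left out, for Adam10 (0.14 without control replicate 1, within a range of -0.34 to 0.14) and Adam9 (0.053 without control replicate 1 and 0.074 without overexpression replicate 3, within a range of -0.20 to 0.074). Same-numbered samples of the groups had correlations of their deviations of 0.287, 0.0238 and 0.295. Overexpression replicates 1 and 3 correlated best with the control of their number, and replicate 2 with control replicate 1 (0.106). Pairing by number is therefore not excluded, and the main fit did not use it. With the replicate block, 3 genes were higher, 3 lower and 0 passed at the adjusted p. The block lowered the unadjusted limma p of Adamts1 (0.22 to 0.0065), Timp3 (0.0658 to 0.0057) and Adamts9 (0.223 to 0.0308), all with folds below 1.5. It raised that of others, such as Mmp11 (0.0072 to 0.0109). As the depth is unknown, no counting error could be given for genes at a low level.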
